A study of Mus musculus with 9 samples.

Results

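The RNA exosome is the ribonuclease complex that trims and degrades RNA from its end, and EXOSC3 is one of the proteins of its cap. The response of mouse neuroblastoma cells to EXOSC3 depletion was examined by RNA-seq across gene families and pathways. Of the 9 libraries of the series, the 6 used here were 3 scramble libraries and 3 siEXOSC3 libraries. Both groups were N2A cells, a neuroblastoma line of sympathetic origin, transfected with siRNA by a lipid reagent. The labels give the scramble cells the genotype WT and the siEXOSC3 cells the genotype EXOSC3 knockdown, and list both as Untreated. The depletion was transient, and which of the study's EXOSC3 siRNAs was used for these libraries is not given in the sources used here. Replicates were separate plates of one cell line, so the spread between them is that of parallel cultures. The deposited table lists 24318 genes in FPKM (fragments per kilobase of transcript, scaled to the number of fragments in the library). Of these, 11242 had a mean of at least 1 FPKM over the 6 libraries and were tested, 13076 lay under that level, and 7303 of the latter were at 0 in all 6. FPKM hold no read number, so the depth reached in each library is unknown and no counting interval is given.

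The exosome acts in the nucleus and the cytoplasm. In the nucleus it matures ribosomal RNA, small nucleolar RNA (snoRNA) and small nuclear RNA, and removes short-lived transcripts such as promoter upstream and antisense RNAs. Helicase cofactors feed RNA into the barrel, and the nucleases DIS3 and EXOSC10 digest it. Inherited variants of subunit genes, EXOSC3 among them, cause pontocerebellar hypoplasia, a disorder of the hindbrain.

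Exosc3 itself stood at 45.8, 43.8 and 42.7 FPKM in scramble replicates 1, 2 and 3. In siEXOSC3 replicates 1, 2 and 3 it stood at 6.84, 7.68 and 6.01 FPKM. The groups were far apart, and siEXOSC3 replicate 2 kept the most Exosc3 transcript and replicate 3 the least. The log2 fold change, here and below the difference of log2(FPKM + 1), was -2.53 (SE 0.09, limma adjusted p = 1.11e-05), and 15.5% of the scramble mean remained. The exact permutation test gave p = 0.1, the smallest that 3 libraries against 3 allow. On NCBIM37 (mm9) the gene occupies chromosome 4, minus strand, from 45329485 to 45355604. It overlaps Dcaf10, and the libraries were not strand-specific.

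Across all tested genes, 32.4% passed limma at an adjusted p-value below 0.05 (the threshold used throughout), 16.7% as increased and 15.7% as decreased. All 3 siEXOSC3 values lay above all 3 scramble values in 23.8% of genes and below them in 25.9%. Taken over every tested gene, the median log2 fold change was -0.0145. Families are described below by their members called in each direction and their median, to be read against these shares, and no family was tested as a set. The filter takes the mean over both groups, so a gene low in either group can pass through the other and stay in these counts. Correlations between libraries of log2 values ranged from 0.983 to 0.996 within groups and from 0.966 to 0.986 between groups. Where leaving out 1 library moved a count far, the 6 counts without scramble replicates 1, 2 and 3 and without siEXOSC3 replicates 1, 2 and 3 are given, in that order, as leave-one-out counts. Over all genes 1877 increased (leave-one-out counts 1025, 1317, 1182, 1180, 2384 and 1731) and 1767 decreased (leave-one-out counts 582, 931, 806, 868, 2502 and 1515). Where a family below had 0 to 2 members called against its main direction, that count was 0 to 3 without 1 library, except where other counts are given.

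The cell type label was checked against markers. Of 17 neuronal and sympathetic markers, 16 had a mean of at least 1 FPKM, and their summed level was 771 to 819 FPKM in scramble and 1349 to 1457 FPKM in siEXOSC3 libraries. Of these markers 12 increased and 0 decreased. The exception under the filter was Th, the enzyme that begins catecholamine synthesis, at 0.223, 0.172 and 0.143 FPKM in scramble and 1.00, 0.749 and 1.90 FPKM in siEXOSC3 replicates 1, 2 and 3. Markers of other cells were under a mean of 1 FPKM, apart from Mbp and Pecam1. The 6 fibroblast markers summed to 0.846 to 1.13 FPKM in scramble and 1.03 to 1.32 FPKM in siEXOSC3 libraries, with Col1a2, Col3a1 and Lum at 0 in all 6. The 6 macrophage markers summed to 0.726 to 1.88 and 0.357 to 1.22 FPKM, with Ptprc, Itgam and Adgre1 at 0. The 4 astrocyte markers summed to 0.342 to 0.569 and 0.178 to 0.379 FPKM, with Aqp4 and Slc1a2 at 0. The 5 oligodendrocyte and Schwann cell markers summed to 2.69 to 3.27 and 2.90 to 3.45 FPKM, with Mbp at 1.75 to 2.42 FPKM over the 6 libraries and not called. Of the 4 endothelial markers, the vascular adhesion gene Pecam1 was present and increased, from 3.80 to 4.49 FPKM in scramble to 6.11 to 9.08 FPKM in siEXOSC3 libraries, while Kdr was at 0 in all 6. In a bulk culture, more cells of a kind and more RNA per cell cannot be told apart.

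**Figure D1:**
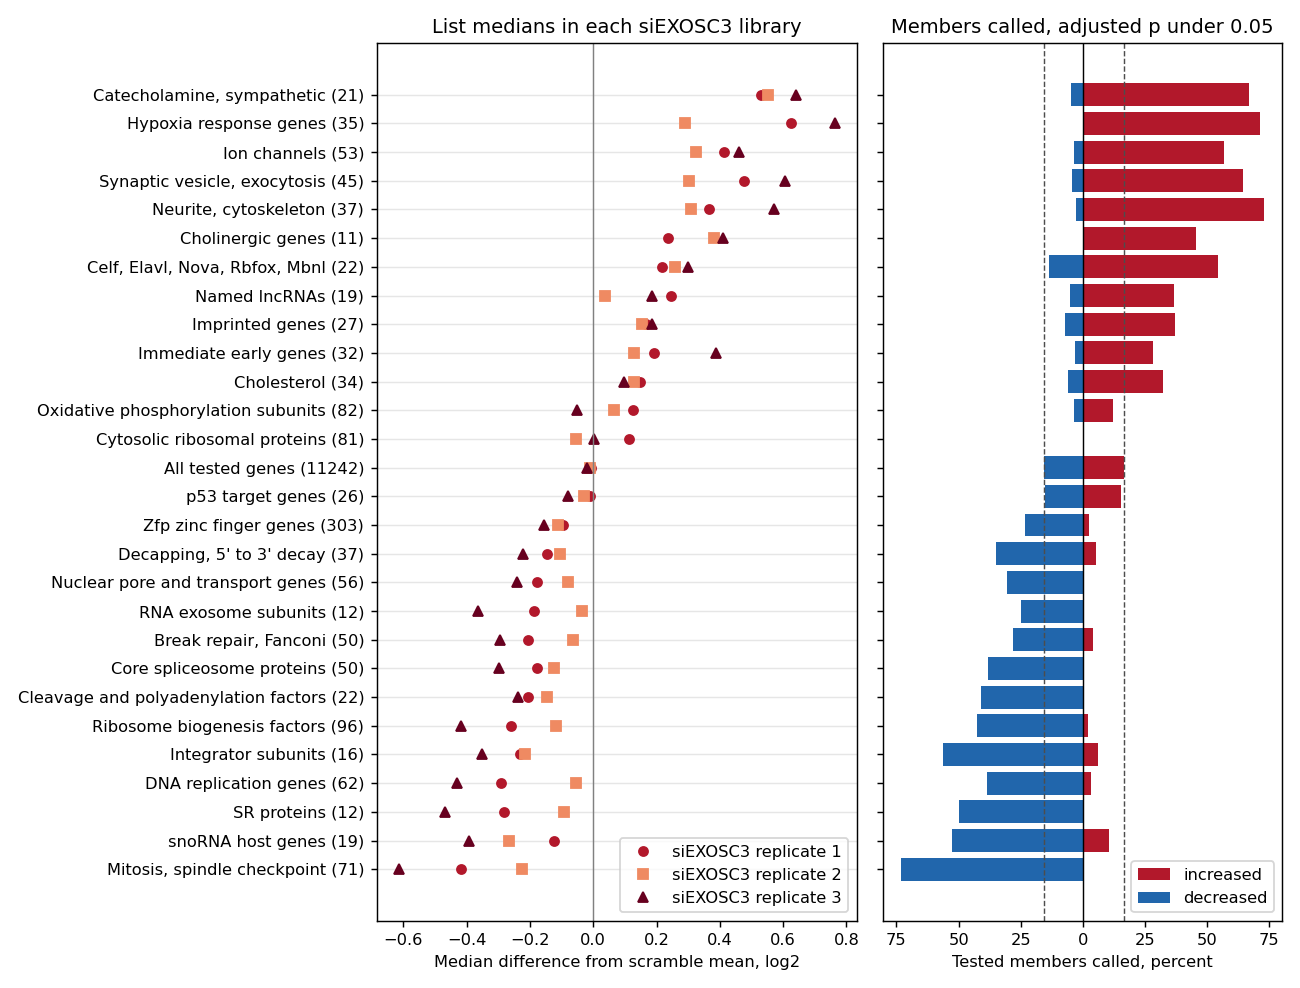
Left, the median log2 difference from the scramble mean over the tested members of 27 gene groups and of all tested genes (members tested in brackets), 1 point for each siEXOSC3 library; right, the percentage of tested members called increased (red) or decreased (blue), with dashed lines at the shares over all tested genes (16.7% and 15.7%). Neuronal and hypoxia groups lie to the right and mitosis, snoRNA host and RNA processing groups to the left, with siEXOSC3 replicate 3 the farthest from 0 in most groups on either side.

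Genes of the sympathetic and chromaffin lineage rose in siEXOSC3 cells. Of 32 catecholamine and sympathetic lineage genes in the table, 21 were tested, 14 increased and 1 decreased, with a median log2 fold change of 0.59 against -0.0145 over all genes. The medians in siEXOSC3 replicates 1, 2 and 3 were 0.53, 0.55 and 0.64. Chgb, a granin that packs dense core granules, was at 114, 129 and 116 FPKM in scramble and 329, 317 and 430 FPKM in siEXOSC3 replicates 1, 2 and 3. Its lowest siEXOSC3 value was above its highest scramble value by far, and the log2 fold change was 1.56 (SE 0.12, limma adjusted p = 0.000336). Scg2, another granin, went from 106, 117 and 99.7 to 282, 241 and 370 FPKM (log2 fold change 1.44, SE 0.14, limma adjusted p = 0.000835). Slc18a2, the vesicular monoamine transporter, was at 5.84, 6.67 and 5.28 FPKM in scramble and 13.3, 10.0 and 14.6 FPKM in siEXOSC3 cells (log2 fold change 0.97). Dbh, which makes noradrenaline from dopamine, rose by 0.88 on the log2 scale, from 3.83, 4.70 and 5.05 FPKM to 9.05, 8.35 and 10.0 FPKM. Neither gene overlapped between the groups.

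Among receptors and regulators of this lineage, Ret, the receptor of glial cell line derived neurotrophic factors, rose from 62.3, 63.1 and 67.6 FPKM to 106, 103 and 123 FPKM (log2 fold change 0.77, SE 0.08, limma adjusted p = 0.000988). The receptor genes Alk (0.69) and Ngfr (0.69) and the transcription factor genes Isl1 (0.68), Mycn (0.86) and Phox2a (0.59) also rose, with log2 fold changes in brackets. The transcription factor genes Hand2 (limma adjusted p = 0.0648) and Gata2 (limma adjusted p = 0.977) were not called and overlapped between the groups. Tbx2, a repressor, was the member that decreased (log2 fold change -0.41).

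Neurite and cytoskeleton genes rose as a larger block. Of 45 in the table, 37 were tested, 27 increased and 1 decreased, with a median log2 fold change of 0.40. The increased members numbered 19 to 27 when 1 library was left out, fewest without scramble replicate 1. Gap43, a protein of the growth cone, was at 84.2, 83.3 and 77.0 FPKM in scramble and 227, 223 and 248 FPKM in siEXOSC3 cells. The replicates were tight in both groups, and the log2 fold change was 1.501 (SE 0.07, limma adjusted p = 6.71e-05). Tubb2b, a beta-tubulin of young neurons, went from 25.2, 30.1 and 24.2 FPKM to 80.1, 65.4 and 98.1 FPKM, a log2 fold change of 1.57 (SE 0.14, limma adjusted p = 0.000600). Its neighbour in the family, Tubb2a, rose by 1.31 on the log2 scale, and since the tubulin genes are near-identical in sequence their division of reads is uncertain. The microtubule binding protein genes Mapt (1.21), Map1b (0.92) and Map2 (0.72), the stathmin genes Stmn4 (1.33) and Stmn2 (1.06) and the adhesion gene L1cam (1.08) rose as well. Stmn1, the stathmin of dividing cells and the most abundant member, was at 736 to 831 FPKM in scramble and 753 to 793 FPKM in siEXOSC3 cells (limma adjusted p = 0.751). The ubiquitous tubulin genes Tuba1b (log2 fold change -0.05) and Tuba1c (0.04) were not called either, and Kif5b, a ubiquitous kinesin heavy chain, decreased (log2 fold change -0.40) where the neuronal kinesins Kif5a (0.33, a call lost without scramble replicate 1) and Kif5c (0.38) increased.

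Synaptic vesicle and exocytosis genes followed. Of 67 in the table, 45 were tested, 29 increased and 2 decreased (Syt6 and Rims2), with a median log2 fold change of 0.43. The call of Rims2 was lost without scramble replicate 1, scramble replicate 2 or siEXOSC3 replicate 1. Syn2, a synapsin that tethers vesicles, was at 34.1, 39.2 and 33.6 FPKM in scramble and 100.5, 89.5 and 129 FPKM in siEXOSC3 cells, with no overlap (log2 fold change 1.54, SE 0.13, limma adjusted p = 0.000522). Cplx2, a complexin that clamps the fusion machinery, rose from 9.60, 10.9 and 9.43 FPKM to 26.8, 23.3 and 28.9 FPKM (log2 fold change 1.32). Calcium sensors and fusion proteins on the list included Syt1 (0.83), Syt5 (0.92), Vamp2 (0.70) and Snap25 (0.36), all called. The general fusion factors Nsf (-0.06) and Napa (-0.06) were not called, whereas Napb, the neuronal form of the latter, rose by 1.15 on the log2 scale. Nsg2, a neuronal endosome protein outside these lists, rose from 14.6, 17.2 and 15.7 FPKM to 53.8, 51.4 and 61.4 FPKM (log2 fold change 1.74, SE 0.09, limma adjusted p = 7.46e-05).

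Ion channel and ionotropic receptor genes were mostly below the filter. Of 234 listed genes 53 were tested, 30 increased and 2 decreased (Clcn7 and Trpm7), with a median log2 fold change of 0.44. The increased members include Grin1, which passed the filter through its siEXOSC3 values (mean 1.93 FPKM, against 0.596 FPKM in scramble). The increased members numbered 22 to 30 when 1 library was left out. Without the low-level filter the median of the list was 0.0347. Those called spanned calcium channel subunits (Cacnb1, 1.27, and Cacng8, 0.87), potassium channels (Kcnn3, 0.93), sodium channels (Scn9a, 0.49, and Scn3b, 0.50) and ligand-gated receptors. Htr3a, the serotonin-gated channel, was the most abundant, at 57.1, 59.2 and 63.5 FPKM in scramble and 103, 100.1 and 111 FPKM in siEXOSC3 cells (log2 fold change 0.80, SE 0.07, limma adjusted p = 0.000522). Chrna3, a nicotinic receptor subunit of autonomic ganglia, rose from 31.1, 30.5 and 34.9 FPKM to 45.4, 58.1 and 44.6 FPKM, without overlap. Of 11 cholinergic genes tested, 5 increased and 0 decreased (6 and 2 at an unadjusted limma p-value under 0.05), among them Prima1, the membrane anchor of acetylcholinesterase (log2 fold change 0.60). Both synuclein genes tested, Sncb (1.33) and Sncg (1.92), increased.

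**Figure D2:**
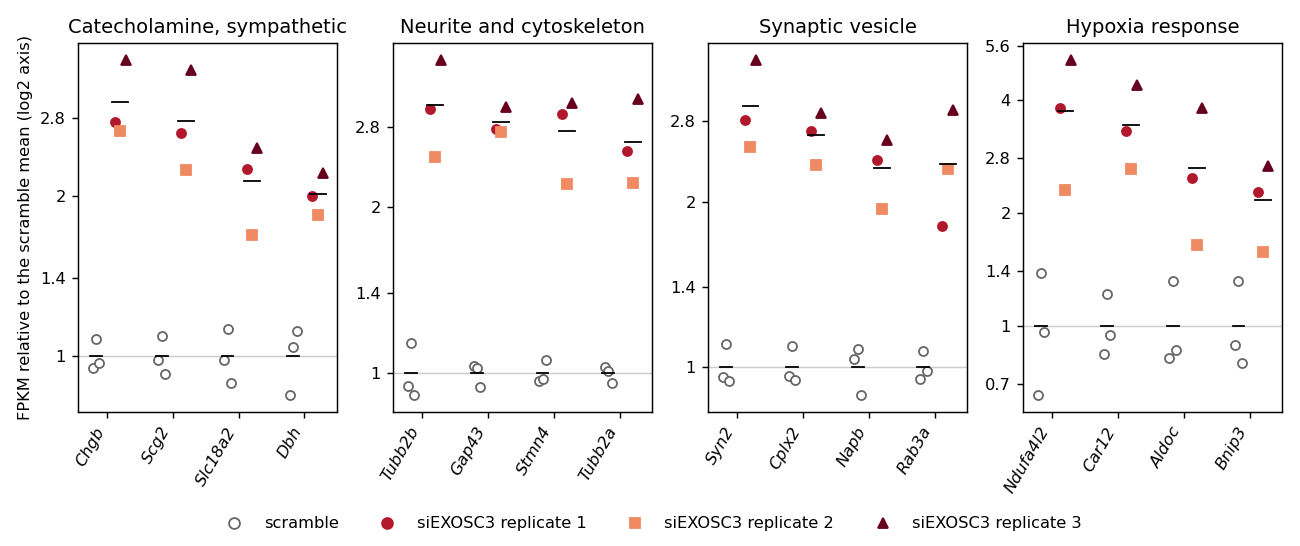
FPKM of each library divided by the scramble mean of the gene (log2 axis, dashes at the group means) for 4 genes each of the catecholamine and sympathetic, neurite and cytoskeleton, synaptic vesicle and hypoxia groups; open circles are the 3 scramble libraries. No siEXOSC3 value overlaps a scramble value, and for the hypoxia genes siEXOSC3 replicate 2 lies nearest to scramble, for example Bnip3 at 115 FPKM against 96.2 FPKM in scramble replicate 2.

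Among genes of neuronal RNA-binding proteins more rose than fell. Of 22 tested genes of the Celf, Elavl, Nova, Rbfox, Mbnl and related families, 12 increased and 3 decreased. Elavl4, a stabilizer of AU-rich messenger RNA in neurons, was at 30.4, 28.7 and 30.5 FPKM in scramble and 47.9, 52.2 and 46.1 FPKM in siEXOSC3 cells (log2 fold change 0.69, SE 0.07, limma adjusted p = 0.000835). Celf3 (0.77), Celf5 (0.70), Elavl3 (0.53), Nova2 (0.56) and Rbfox2 (0.41) also rose. The members that decreased were Qk (-0.64) and the polypyrimidine tract binding protein genes Ptbp2 (-0.33) and Ptbp1 (-0.22), which hold back neuronal exons. Ptbp1 was no longer called without any 1 of the scramble libraries or without siEXOSC3 replicate 1. Of 31 tested axon guidance genes 6 increased (leave-one-out counts 3, 5, 4, 4, 9 and 6) and 2 decreased, with the increased share near that over all genes. Of 14 clustered protocadherins 4 increased (leave-one-out counts 1, 3, 1, 2, 6 and 3) and 0 decreased, with 7 and 1 at an unadjusted limma p-value under 0.05. Their median log2 fold change of 0.17 came to -0.00128 with quantile normalization.

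Most of the hypoxia response genes tested rose. The transcription factor HIF1 turns these genes on when oxygen is low, because its alpha subunit is then no longer marked for degradation by prolyl hydroxylases, a control at the level of protein. Of 38 such genes listed 35 were tested, 25 increased and 0 decreased by limma (29 and 1 at an unadjusted p-value under 0.05), with a median log2 fold change of 0.57. The medians in siEXOSC3 replicates 1, 2 and 3 were 0.62, 0.29 and 0.76. The count depended on single libraries (leave-one-out counts 10, 26, 8, 12, 29 and 25). In 26 of the 35 genes all 3 siEXOSC3 values lay above all 3 scramble values.

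Bnip3, which marks mitochondria for autophagy, was at 64.7, 96.2 and 57.9 FPKM in scramble and 166, 115 and 195 FPKM in siEXOSC3 cells. Scramble replicate 2 was the highest of its group and siEXOSC3 replicate 2 the lowest of its own, and the groups did not overlap (log2 fold change 1.11, SE 0.22, limma adjusted p = 0.00863). The largest rise was that of Ndufa4l2, from 2.76, 5.84 and 4.07 FPKM to 16.1, 9.77 and 21.7 FPKM (log2 fold change 1.67, SE 0.28, limma adjusted p = 0.00473). Car12, a carbonic anhydrase of the cell surface, rose from 6.73, 9.71 and 7.56 FPKM to 26.5, 20.96 and 35.2 FPKM (log2 fold change 1.65, SE 0.18, limma adjusted p = 0.00106). Ero1l, an oxidase of the endoplasmic reticulum, was at 125, 138 and 125 FPKM in scramble and 266, 200 and 323 FPKM in siEXOSC3 cells (log2 fold change 0.99). Among glycolytic genes Ldha (0.58), Aldoa (0.73), Tpi1 (0.67), Pgk1 (0.64) and Eno1 (0.52) and the glucose transporter gene Slc2a3 (0.98) rose. Pdk1, a kinase of the pyruvate dehydrogenase complex, had a scramble mean of 0.971 FPKM. It passed the filter through its siEXOSC3 values (mean 2.37 FPKM), so its call is not read as support. The 25 increased members counted above still include it. The prolyl hydroxylase gene Egln1 (0.36) and the growth factor gene Vegfa (0.50) increased too. Of these calls, those of Egln1, Vegfa, Eno1 and Pgk1 were lost without scramble replicate 1, scramble replicate 3 or siEXOSC3 replicate 1, that of Aldoa without scramble replicate 1 or 3, and that of Slc2a3 without scramble replicate 3. Hif1a itself, which encodes the alpha subunit, was at 81.6, 78.0 and 74.5 FPKM in scramble and 69.8, 66.3 and 78.2 FPKM in siEXOSC3 cells, and was not called (log2 fold change -0.13, limma adjusted p = 0.229). The oxygen and the density of the cultures were not given in the sources used here, and their part in the result was not tested.

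The promoters of the hypoxia genes were searched for ACGTG, the core letters of the hypoxia response element, on both strands (CACGT on the other), in RefSeq windows of GRCm38.p6 from 250 bases before to 50 after each listed start. Of 9041 tested genes with such a window, 30.07% held the letters, and of 31 hypoxia genes 23 did, or 74.19%. Over all genes the letters did not go with the change, since 16.04% of genes with them and 16.29% of those without them increased. Among the hypoxia genes 17 of 23 with the letters and 5 of 8 without them increased, with median log2 fold changes of 0.50 and 0.62. The 5 include Pdk1, which passed the filter through its siEXOSC3 values. The windows of Bnip3 and Ero1l are shown because these had the largest changes among called hypoxia genes with the letters at a single listed start. The match is in capitals. In Bnip3 (minus strand, chr7:138909457-138909756) a pair of overlapping matches, one on each strand, began 108 and 107 bases before the start, and in Ero1l (minus strand, chr14:45318523-45318822) the match began 63 bases before it.
Bnip3: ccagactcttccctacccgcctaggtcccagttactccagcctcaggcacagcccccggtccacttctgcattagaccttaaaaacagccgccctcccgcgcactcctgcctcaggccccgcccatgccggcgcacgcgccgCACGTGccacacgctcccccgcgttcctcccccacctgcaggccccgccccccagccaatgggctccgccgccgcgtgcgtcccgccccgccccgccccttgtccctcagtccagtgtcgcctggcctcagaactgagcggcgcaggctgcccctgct
Ero1l: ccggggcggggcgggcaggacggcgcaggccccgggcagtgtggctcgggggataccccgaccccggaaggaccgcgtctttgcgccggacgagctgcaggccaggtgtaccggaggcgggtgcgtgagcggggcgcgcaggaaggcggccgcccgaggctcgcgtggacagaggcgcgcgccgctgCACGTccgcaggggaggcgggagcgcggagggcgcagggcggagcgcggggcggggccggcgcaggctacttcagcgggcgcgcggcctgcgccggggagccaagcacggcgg

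Mitosis genes fell in siEXOSC3 cells. All 71 genes of the mitosis and spindle checkpoint list were tested, all had a log2 fold change below 0, and 52 decreased and 0 increased by limma (62 and 0 at an unadjusted p-value under 0.05), with a median of -0.41. The medians in siEXOSC3 replicates 1, 2 and 3 were -0.42, -0.22 and -0.62. The leave-one-out counts of decreased members were 25, 29, 34, 30, 67 and 45. Aurka, the kinase of the spindle poles, was at 51.8, 48.5 and 47.7 FPKM in scramble and 26.6, 31.2 and 21.3 FPKM in siEXOSC3 cells. All siEXOSC3 values were lower, replicate 3 the most (log2 fold change -0.90, SE 0.12, limma adjusted p = 0.00242). Bub1b, a checkpoint kinase at the kinetochore, went from 47.6, 48.3 and 47.4 FPKM to 30.2, 32.1 and 27.2 FPKM (log2 fold change -0.66, SE 0.07, limma adjusted p = 0.00106). Plk1 (-0.66), the cyclin genes Ccnb1 (-0.66) and Ccna2 (-0.60), the anaphase activator gene Cdc20 (-0.60) and the kinesin genes Kif20a (-0.64) and Kif4 (-0.58) fell by similar amounts. Ccna2 overlaps Exosc9, and without strand their reads cannot be separated. Top2a, the most abundant member, fell from 255 to 307 FPKM in scramble to 195 to 242 FPKM in siEXOSC3 cells (log2 fold change -0.39, limma adjusted p = 0.0202), a call lost without scramble replicate 1, scramble replicate 2 or siEXOSC3 replicate 1. The proliferation marker Mki67 overlapped between the groups, at 97.0, 114 and 95.5 FPKM in scramble and 93.7, 99.99 and 92.1 FPKM in siEXOSC3 cells (limma adjusted p = 0.392), and Cdk1 was not called (log2 fold change -0.29, limma adjusted p = 0.0549). Of the genes given here as not called, Cdk1, Pcna, Dis3, Exosc6, Exosc9, Dis3l, Neat1 and Snora78 were called without siEXOSC3 replicate 2, and Hand2 without siEXOSC3 replicate 3.

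Promoters of mitosis genes often carry the cell cycle genes homology region, whose letters are TTTGAA. On both strands (TTCAAA on the other) and in the same windows, 14.02% of the 9041 genes held it, and 38 of 61 mitosis genes did, or 62.3%. Of all genes with it 19.16% decreased, against 15.62% of those without it. Among the mitosis genes 28 of 38 with it and 16 of 23 without it decreased, with medians of -0.42 and -0.37. The CCAAT box (CCAAT, or ATTGG on the other strand) was held by 43.87% of all genes and by 42 of the 61 mitosis genes, or 68.85%. Of the mitosis genes 27 of 42 with the box and 17 of 19 without it decreased, with medians of -0.41 and -0.39. Aurka (minus strand, chr2:172370521-172370820, match 32 bases after the start) and Bub1b (plus strand, chr2:118597961-118598260, match 40 bases after it) are shown as the called members with the largest changes, with TTTGAA in capitals.
Aurka: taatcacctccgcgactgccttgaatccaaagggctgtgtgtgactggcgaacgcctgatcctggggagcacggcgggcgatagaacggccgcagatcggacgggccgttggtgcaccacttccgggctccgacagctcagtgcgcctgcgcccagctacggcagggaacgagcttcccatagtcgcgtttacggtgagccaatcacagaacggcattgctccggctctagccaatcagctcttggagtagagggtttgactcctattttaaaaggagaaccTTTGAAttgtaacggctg
Bub1b: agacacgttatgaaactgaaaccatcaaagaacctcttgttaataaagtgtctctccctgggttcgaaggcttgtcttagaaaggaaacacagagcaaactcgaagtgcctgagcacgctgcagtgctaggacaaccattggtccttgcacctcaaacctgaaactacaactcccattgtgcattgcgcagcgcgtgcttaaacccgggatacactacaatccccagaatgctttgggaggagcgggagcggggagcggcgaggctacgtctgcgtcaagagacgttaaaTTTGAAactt

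Some DNA replication genes fell. Of 62 tested, 24 decreased and 2 increased, with a median log2 fold change of -0.28. The medians in siEXOSC3 replicates 1, 2 and 3 were -0.29, -0.06 and -0.43. The leave-one-out counts of decreased members were 7, 15, 10, 10, 48 and 17. Gins1, a subunit of the replicative helicase, was at 21.2, 21.2 and 23.5 FPKM in scramble and 12.1, 14.9 and 8.41 FPKM in siEXOSC3 cells (log2 fold change -0.87, SE 0.17, limma adjusted p = 0.00716). Dbf4, the activator of the origin kinase Cdc7, fell from 48.5, 49.1 and 41.8 FPKM to 29.98, 32.1 and 25.996 FPKM (log2 fold change -0.65), and the flap endonuclease gene Fen1 fell as well (-0.56). Of the helicase ring genes Mcm3 (-0.50), Mcm5 (-0.50) and Mcm7 (-0.29) were called, Mcm5 and Mcm7 not without scramble replicate 1, scramble replicate 3 or siEXOSC3 replicate 1, nor Mcm7 without scramble replicate 2 or siEXOSC3 replicate 3, and Mcm2 was not (limma adjusted p = 0.229), nor was the sliding clamp gene Pcna (limma adjusted p = 0.178). Pold4, the smallest subunit of DNA polymerase delta, rose from 4.61, 3.85 and 3.67 FPKM to 9.85, 9.20 and 13.7 FPKM (log2 fold change 1.23, SE 0.14, limma adjusted p = 0.00134). Of 50 tested genes of double-strand break repair and the Fanconi pathway 14 decreased (leave-one-out counts 4, 6, 6, 5, 24 and 11) and 2 increased, with the checkpoint kinase gene Atm (-0.58), the ligase gene Lig4 (-0.60) and Fancb (-0.66) among the falls.

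A number of ribosome biogenesis factors fell, and no cytosolic ribosomal protein gene passed the test. Of 96 tested factors 41 decreased and 2 increased, with a median of -0.27. The leave-one-out counts of decreased members were 9, 22, 19, 16, 66 and 33. Utp20, a component of the small subunit processome, was at 25.2, 22.8 and 23.5 FPKM in scramble and 15.7, 17.8 and 13.5 FPKM in siEXOSC3 cells (log2 fold change -0.58, SE 0.10, limma adjusted p = 0.00482). Utp14a (-0.58) and Tsr1 (-0.57), which act in the maturation of the small subunit, fell by like amounts. Polr1b, the second largest subunit of RNA polymerase I, also fell (log2 fold change -0.57), a call lost without scramble replicate 1 or 3. The abundant nucleolar protein genes were divided, since Ncl decreased (-0.34, a call lost without scramble replicate 1, scramble replicate 2 or siEXOSC3 replicate 1) while Npm1 (-0.19), Fbl (-0.08) and Nop56 (0.02) were not called. Of 81 tested cytosolic ribosomal protein genes 0 increased and 0 decreased by limma, against 0 and 2 at an unadjusted p-value under 0.05. Their median log2 fold change was 0.02. Of 77 mitochondrial ribosomal protein genes 10 decreased (leave-one-out counts 3, 4, 4, 7, 22 and 7) and 2 increased (leave-one-out counts 1, 1, 2, 1, 3 and 6), with a median of -0.11. Both shares were below those over all genes. Of 82 subunits of oxidative phosphorylation 10 increased (leave-one-out counts 5, 7, 7, 6, 11 and 13) and 3 decreased (leave-one-out counts 0, 0, 2, 1, 3 and 4), shares below those over all genes, and the isoform genes Cox7a1 (1.11) and Cox4i2 (1.07) led the rises.

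**Figure D3:**
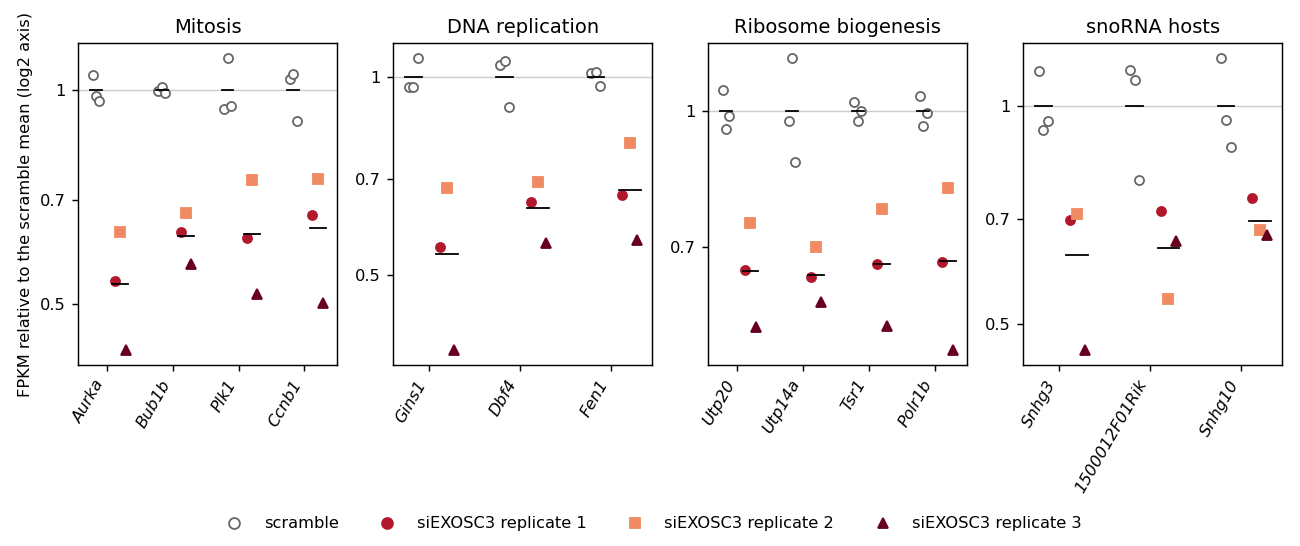
FPKM of each library divided by the scramble mean of the gene (log2 axis, dashes at the group means) for mitosis, DNA replication, ribosome biogenesis and snoRNA host genes; open circles are the 3 scramble libraries. All siEXOSC3 values lie below the scramble values, and siEXOSC3 replicate 2 lies nearest to scramble for most genes, for example Aurka at 31.2 FPKM against 26.6 and 21.3 FPKM in replicates 1 and 3.

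Of the other exosome subunits 2 passed the test. All 12 subunits were tested, each had a mean log2 fold change below 0, and 3 decreased, Exosc3 among them (leave-one-out counts 1, 1, 1, 2, 7 and 3) and 0 increased, against 4 and 0 at an unadjusted limma p-value under 0.05. The medians in siEXOSC3 replicates 1, 2 and 3 were -0.19, -0.03 and -0.36. Beside Exosc3 these were Exosc8 and Exosc7, both of the barrel ring. Exosc8, itself a pontocerebellar hypoplasia gene, was at 56.2, 56.8 and 53.7 FPKM in scramble and 38.7, 50.5 and 34.2 FPKM in siEXOSC3 cells (log2 fold change -0.44, SE 0.13, limma adjusted p = 0.0288). Exosc7 was at 31.6, 33.6 and 31.4 FPKM in scramble and 28.2, 26.5 and 21.6 FPKM in siEXOSC3 cells (log2 fold change -0.34, limma adjusted p = 0.0306). Neither was called without any 1 of the scramble libraries, nor Exosc8 without siEXOSC3 replicate 1. The nuclease genes Dis3 (log2 fold change -0.22, limma adjusted p = 0.0915) and Exosc10 (-0.09, limma adjusted p = 0.295) were not called, and neither were the cap genes Exosc1 (-0.06) and Exosc2 (-0.06). Exosc1, Exosc2, Exosc4, Exosc5, Exosc6, Exosc9, Exosc10 and Dis3l overlapped between the groups, and in siEXOSC3 replicate 2 the level of Exosc2 (95.2 FPKM), Exosc4 (31.9 FPKM), Exosc6 (20.9 FPKM) and Exosc9 (31.4 FPKM) lay above all scramble values.

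Of 22 exosome cofactors 3 decreased (leave-one-out counts 0, 0, 1, 0, 8 and 4) and 0 increased, against 6 and 0 at an unadjusted limma p-value under 0.05. The decreased share, 13.6%, was below the 15.7% over all genes. Among the 3 that decreased were Skiv2l2, the helicase MTR4 that all nuclear adaptors share (-0.21), and Zc3h18, which ties the nuclear exosome targeting complex to the cap-binding complex of messenger RNA (-0.33). Both calls were lost without any 1 scramble library or siEXOSC3 replicate 1. Of 37 factors of deadenylation, decapping and 5′ to 3′ decay 13 decreased (leave-one-out counts 6, 7, 7, 7, 16 and 12) and 2 increased. Tob2, an adaptor of the deadenylase complex, fell from 21.5, 21.6 and 21.4 FPKM to 12.96, 12.2 and 11.6 FPKM (log2 fold change -0.77, SE 0.07, limma adjusted p = 0.000522). The decapping enzyme gene Dcp2 (-0.42, a call lost without scramble replicate 1) and its partner Dcp1a (-0.47) fell, and the exonuclease gene Xrn1 was not called (0.03). The pontocerebellar hypoplasia list had 6 of 22 decreased (leave-one-out counts 2, 5, 3, 3, 8 and 6) and 1 increased. The decreased members included Exosc3, the siRNA target itself, and Exosc8, beside Clp1, an RNA kinase of transfer RNA splicing, at -0.68, and Toe1, a deadenylase of small nuclear RNA, at -0.56. The call of Toe1 was lost without scramble replicate 1, scramble replicate 3 or siEXOSC3 replicate 1, and with a replicate block. The block lost the calls of 29 named genes, among them also Skiv2l2, Zc3h18, Eno1, Pgk1, Mcm5 and Mcm7.

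Some members of the RNA processing machines decreased. Of 50 core spliceosome proteins 19 decreased and 0 increased, of 12 SR proteins 6 decreased and 0 increased, and of 22 cleavage and polyadenylation factors 9 decreased and 0 increased. Their median log2 fold changes were -0.20, -0.28 and -0.21. The leave-one-out counts were 7, 11, 10, 10, 26 and 16 for the spliceosome and 0, 2, 0, 1, 9 and 5 for the SR proteins. No member of these 3 lists rose at an unadjusted limma p-value under 0.05, and 24, 7 and 12 fell. Srsf3, an SR protein that also exports messenger RNA, was at 168, 162 and 166 FPKM in scramble and 115, 143 and 78.9 FPKM in siEXOSC3 cells (log2 fold change -0.60, SE 0.18, limma adjusted p = 0.0361). The siEXOSC3 values spread widely, and the call was lost without any 1 scramble library or siEXOSC3 replicate 1. Rbbp6, a ubiquitin ligase of the cleavage complex, fell from 53.2, 57.9 and 49.9 FPKM to 39.1, 41.4 and 39.3 FPKM (log2 fold change -0.42), and the poly(A) polymerase gene Papola was not called (-0.08). Of 49 DEAD and DEAH box helicase genes 15 decreased and 0 increased, with Ddx39 (-0.67), Ddx31 (-0.60) and Ddx46 (-0.56) the lowest (leave-one-out counts 6, 8, 8, 7, 21 and 11). Of 29 factors that resolve or prevent RNA-DNA hybrids (R-loops) 8 decreased and 0 increased, among them Thoc1, of the THO export complex (-0.63), and Alyref (-0.48, a call lost without scramble replicate 1). The leave-one-out counts were 2, 3, 5, 3, 17 and 7, and at an unadjusted p-value under 0.05 the helicases had 21 decreased and 1 increased and the hybrid factors 13 and 1. The abundant helicase genes Ddx5 (-0.06) and Ddx1 (0.01) were not called. Of 303 tested zinc finger genes named Zfp 70 decreased and 8 increased, a median of -0.13 (leave-one-out counts of decreased genes 29, 36, 41, 38, 86 and 58, and of increased genes 3, 5, 5, 4, 16 and 9).

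Hosts and small RNAs that the exosome matures were examined next. The snoRNAs are cut from introns of host genes, and many hosts are noncoding genes whose spliced RNA is short-lived. Of 19 tested hosts 10 decreased and 2 increased, with a median log2 fold change of -0.31. Snhg3 was at 192, 159 and 164 FPKM in scramble and 120, 122 and 79.0 FPKM in siEXOSC3 cells (log2 fold change -0.70, SE 0.16, limma adjusted p = 0.0136), without overlap, and the call was lost without scramble replicate 1. It overlaps Rcc1 and the snoRNA genes it hosts. Snhg8 (-0.44), Snhg7 (-0.41) and Snhg17 (-0.39) decreased, while Gas5, from 62.3, 62.2 and 52.96 FPKM to 82.9, 78.7 and 68.3 FPKM (0.37), and Snhg14 (0.66) increased. The calls of Gas5 (without scramble replicate 1, scramble replicate 3 or siEXOSC3 replicate 1) and Snhg7 (without scramble replicate 1 or 2) were lost. The abundant host Snhg1 was not called (-0.15). The leave-one-out counts of decreased hosts were 3, 4, 7, 8, 11 and 8.

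Small structured RNA genes were nearly all below the filter, with 10 of 121 tested, 2 increased (leave-one-out counts 2, 3, 2, 2, 3 and 4) and 0 decreased (3 and 0 at an unadjusted limma p-value under 0.05). Scarna13, a guide RNA of Cajal bodies, rose from 1051, 1266 and 1016 FPKM to 1972, 1839 and 1806 FPKM (log2 fold change 0.76, SE 0.10, limma adjusted p = 0.00233). Snora23, a snoRNA of the box H/ACA class, was at 30.4, 25.2 and 69.8 FPKM in scramble and 105, 263 and 221 FPKM in siEXOSC3 cells. It lies within Ipo7, whose own level was not called (log2 fold change 0.09, limma adjusted p = 0.41), and reads of the intron and of the snoRNA cannot be told apart. Its annotated sequence on the plus strand of NCBIM37, chr7:117189878-117190061, is shown because its class is defined by an ACA box near the mature end. Capitals mark the last ACA of the annotated sequence, 1 base before its end. Another ACA overlaps it on the left, and which of them is the box was not tested.
Snora23: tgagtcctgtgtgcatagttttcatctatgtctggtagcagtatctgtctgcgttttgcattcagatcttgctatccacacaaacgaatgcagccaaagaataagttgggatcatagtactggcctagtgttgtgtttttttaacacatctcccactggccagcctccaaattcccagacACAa

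Snora78 was listed at 0 in all scramble libraries and at 676, 0 and 1237 FPKM in siEXOSC3 replicates 1, 2 and 3, so no fold is given. The RNase MRP RNA gene Rmrp (log2 fold change -0.01) and the RNase P RNA gene Rpph1 (0.01), both abundant, overlapped between the groups.

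Long noncoding RNA (lncRNA) genes rose more often than they fell. Of 2062 listed, 358 were tested, 29.89% increased and 8.101% decreased, with a median log2 fold change of 0.19. Of 10764 protein-coding genes tested 16.27% increased and 16.03% decreased, with a median of -0.019. Malat1, an abundant nuclear RNA, was at 702, 848 and 662 FPKM in scramble and 1382, 876 and 1582 FPKM in siEXOSC3 cells (log2 fold change 0.76, SE 0.20, limma adjusted p = 0.0238). Its siEXOSC3 replicate 2 lay just above the scramble values, and the call was lost without scramble replicate 1, scramble replicate 3 or siEXOSC3 replicate 1. Neat1, which lies beside it and builds paraspeckles, overlapped between the groups, at 34.3, 46.0 and 32.9 FPKM and 73.2, 36.6 and 73.4 FPKM. Trp53cor1, a p53-induced lncRNA, rose from 1.64, 1.46 and 1.52 FPKM to 4.04, 3.44 and 3.99 FPKM (log2 fold change 0.92, SE 0.10, limma adjusted p = 0.000995). Of 33 opposite-strand transcript genes 9 increased (leave-one-out counts 4, 7, 7, 6, 11 and 7) and 4 decreased (leave-one-out counts 1, 3, 2, 3, 4 and 3), their median of 0.11 ranged from -0.17 to 0.17 over the alternatives, and without strand they cannot be separated from their partners. Ggnbp2os (0.95), Mkln1os (0.90) and Cep83os (0.76) led the rises.

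The rise of lncRNA genes went together with low level. Over all genes with a mean of 1 to 3 FPKM the median ratio of siEXOSC3 to scramble was 1.17, and all 3 siEXOSC3 values lay above scramble in 32.03% of genes and below in 11.0%. At 10 to 30 FPKM the ratio was 0.957, and the shares were 20.8% above and 32.8% below. Under the filter, at 0.3 to 1 FPKM, the ratio was 1.25, with 29.3% above and 8.27% below. Within the same level the ratios of lncRNA genes were larger than those of protein-coding genes up to 30 FPKM. At 1 to 3 FPKM they were 1.32 and 1.16, at 3 to 10 FPKM 1.24 and 1.00, at 10 to 30 FPKM 1.00 and 0.956, at 30 to 100 FPKM 0.901 and 0.971, and at 100 FPKM or more 0.872 and 0.995. The difference between the classes was not tested.

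**Figure D4:**
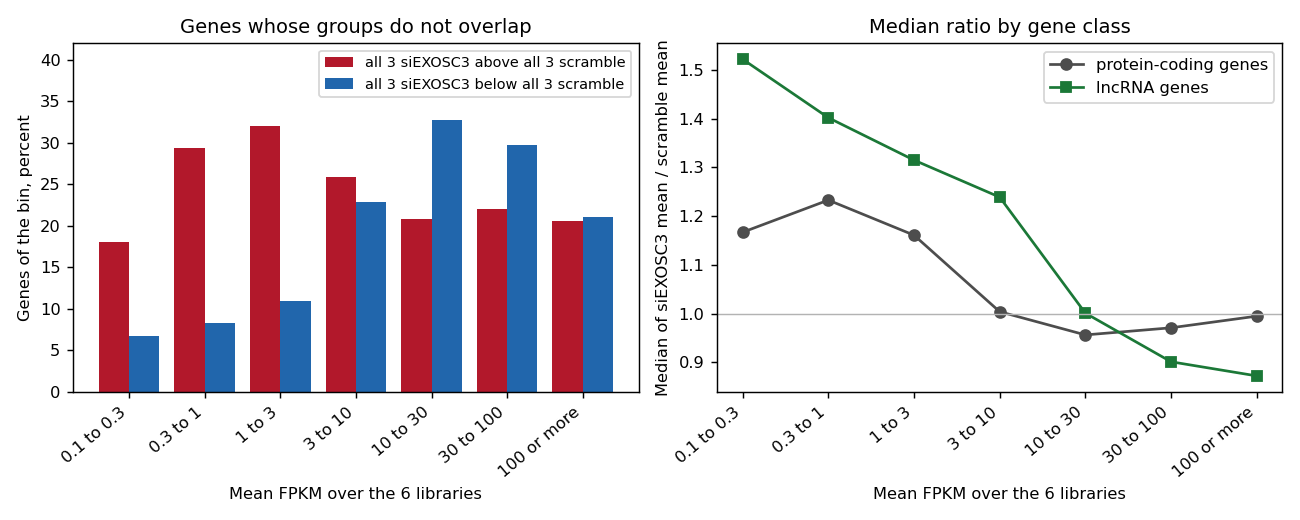
Left, percentage of genes in each bin of mean FPKM whose 3 siEXOSC3 values all lie above (red) or all below (blue) the 3 scramble values; right, median over genes of the siEXOSC3 mean divided by the scramble mean for protein-coding and lncRNA genes, both against mean FPKM over the 6 libraries. Genes of 0.3 to 3 FPKM are more often above than below and those of 10 to 100 FPKM more often below than above, and the lncRNA ratio runs from 1.52 in the lowest bin to 0.872 in the highest.

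The siEXOSC3 libraries differed in how far the groups moved. Over 57 lists, replicate 3, with the lowest Exosc3 level (6.01 FPKM), had the median farthest from 0 in 46, replicate 1 in 6 and replicate 2 in 5. Replicate 2, with the highest Exosc3 level (7.68 FPKM), had the median nearest to 0 in 38 lists, replicate 1 in 13 and replicate 3 in 6. The lists share members and libraries and are not independent. Among groups with another order, the lncRNA medians in replicates 1, 2 and 3 were 0.22, 0.13 and 0.20, those of the small structured RNAs 0.45, 0.23 and 0.00709, and those of oxidative phosphorylation 0.13, 0.06 and -0.05. With 3 libraries this relation was not tested.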

How the data were processed

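RNA from 3 scramble and 3 siEXOSC3 plates was depleted of ribosomal RNA and made into nondirectional paired-end libraries. The submitters' processing notes name mm9, TopHat 2.1.0, SAMtools and Cuffdiff 2.2.1, and the authors deposited FPKM per gene and library. The gene annotation and library scaling are not given in the sources used here. The DDX1 table, scaled separately, was not used here.

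From the deposited FPKM, log2(FPKM + 1) of 11242 genes with a mean of at least 1 was fitted in limma 3.58.1 (R 4.3.3) with lmFit and with eBayes using an intensity trend, two-sided and with no covariates. Calls were made at 0.05 after Benjamini-Hochberg adjustment. No count model was applied, because the values are FPKM. Fold changes on this scale understate changes of low genes. On simulated data of this comparison with 11242 genes, 200 changed by a log2 fold change of 1, 200 were called, 0 with the wrong sign, beside 6 unchanged genes. The simulation drew independent normal noise and planted no smaller changes, so it does not show how well those are recovered. Of the called genes of the data, 123 had a log2 fold change of at least 1 and 13 of -1 or below.

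Of the 24318 listed names, 23120 were RefSeq symbols and 1082 were synonyms of just 1 symbol. In GENCODE vM1 (NCBIM37), 20610 were found. Promoters came from RefSeq windows of GRCm38.p6, and figures from matplotlib version 3.10.9. Members, gene lists and tests were chosen with earlier results of these data known. The rule for named genes took all exosome subunits, the 12 largest rises and 12 largest falls without overlap between groups, up to 4 called members of each list by size of change, and the most abundant member of a described list. Other members named beside them were chosen after their values were seen. Genes that a name pattern or an error had put in a list they do not belong to were removed after the table had been read (integrin-binding proteins, translation factor kinases, protein-coding genes with names ending in os, Grina, Bambi, Gtpbp2 and Ddx26b). The fit was repeated with quantile normalization, with median centring, with 0.1 as pseudocount, without the low-level filter or with it set at 5 FPKM, with no intensity trend, with a replicate block, on protein-coding genes alone, at a threshold of 0.01, and leaving out each library.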

Additional observations from a re-analysis of the deposited data

How the results depend on the processing

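Each group has 3 libraries and the depth reached is not known from FPKM, so small changes of low genes are the least certain. Of 288 called genes that the rule took or the text names, 192 passed the threshold in every alternative that gave a value, and the settings that lost the most calls were a threshold of 0.01 (94) and leaving out scramble replicate 1 (85), scramble replicate 3 (64), siEXOSC3 replicate 1 (54) or scramble replicate 2 (45). A threshold of 0.01 left 869 increased and 480 decreased genes, and increased genes were then 64.42% of the calls in place of 51.51%. Leaving out each library in turn gave 1025 to 2384 increased and 582 to 2502 decreased genes, the fewest without scramble replicate 1 (63.78% of calls increased) and the most without siEXOSC3 replicate 2. Quantile normalization (1697 increased, 1863 decreased) and a mean of at least 5 FPKM (1382 and 1649) turned the majority to decreased genes, as did leaving out siEXOSC3 replicate 2 (48.79% increased). Of these 288 genes, 0 changed the sign of the log2 fold change under the alternatives run. The median log2 fold changes of 7 lists did change sign, those of the opposite-strand (-0.172 to 0.17), protocadherin and Notch pathway lists and of the histone, NRF2, microRNA host and cytosolic ribosomal protein lists. The log2 fold change of Exosc3 ranged from -2.60 to -2.45 without 1 library. The cause of these movements was not tested.

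The labels number the replicates alike in both groups. With the number as a replicate block 1390 genes increased and 1059 decreased. Residuals of libraries with the same number had correlations of 0.0346, -0.31 and -0.126 for replicates 1, 2 and 3. Deviations from a mean of 3 libraries are not independent, so these values cannot decide whether same-numbered libraries shared a day or batch. No library correlated best with its own number.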

Other observations

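Genes of other pathways are given here as values. Of 32 immediate early genes tested, which respond to growth signals, 9 increased (5, 6, 8, 7, 17 and 8 without scramble replicates 1, 2 and 3 and siEXOSC3 replicates 1, 2 and 3) and 1 decreased. Jun, an AP-1 subunit, rose from 11.9, 11.2 and 13.05 FPKM to 20.9, 22.4 and 20.5 FPKM (log2 fold change 0.77, SE 0.08, limma adjusted p = 0.000835), and Dusp6, a phosphatase of ERK kinases, rose by 0.97 on the log2 scale. The antiproliferative gene Btg2 rose from 6.19, 6.70 and 6.88 FPKM to 16.5, 12.9 and 18.0 FPKM (log2 fold change 1.13). Klf4 fell (-0.55). Among 26 p53 target genes 4 increased and 4 decreased (the latter 1, 1, 2, 1, 8 and 3 with 1 library left out, in the same order), shares near those over all genes. The cell cycle inhibitor gene Cdkn1a was at 41.6, 44.4 and 44.5 FPKM in scramble and 73.6, 65.6 and 82.3 FPKM in siEXOSC3 cells (log2 fold change 0.75, SE 0.09, limma adjusted p = 0.00136), and Trp53 itself decreased (-0.28), a call kept in the fit without siEXOSC3 replicate 2 and lost in the other fits without 1 library.

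Of 34 genes of cholesterol synthesis and uptake 11 increased (6, 7, 8, 6, 13 and 12 with 1 library left out, in the same order) and 2 decreased (1 to 4). The reductase genes Tm7sf2 (log2 fold change 1.00) and Dhcr7 (0.81) and the regulator genes Srebf1 (0.53) and Srebf2 (0.49) rose. Of 22 amino acid transporter genes 7 decreased (2, 5, 4, 6, 8 and 6) and 2 increased (0 to 3). Slc38a2, a glutamine carrier, fell from 242, 232 and 224 FPKM to 150.4, 152 and 109 FPKM (log2 fold change -0.77, SE 0.12, limma adjusted p = 0.00391), and the cystine exchanger gene Slc7a11 fell as well (-0.78). Of 27 imprinted genes 10 increased (8 to 10 with 1 library left out) and 2 decreased (1 to 3), with Nap1l5 (0.89), Snrpn (0.82) and Peg13 (0.65) the largest rises.

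Among genes of the extracellular matrix the paired genes Col4a1 and Col4a2, which lie head to head and form 1 collagen IV, are given side by side. Col4a1 fell from 36.7, 34.2 and 41.5 FPKM to 15.8, 17.7 and 18.2 FPKM (log2 fold change -1.07, SE 0.09, limma adjusted p = 0.000522), and Col4a2 was at 29.0, 28.8 and 31.0 FPKM in scramble and 31.9, 33.4 and 41.2 FPKM in siEXOSC3 cells (log2 fold change 0.25, limma adjusted p = 0.0839). Their annotations overlap on opposite strands in GENCODE vM1 and the libraries had no strand, and the difference between the genes was not tested. In the activin pathway Fst, which encodes the inhibitor follistatin, fell from 7.07, 4.65 and 7.26 FPKM to 1.996, 2.51 and 1.71 FPKM (log2 fold change -1.24, SE 0.16, limma adjusted p = 0.00212).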
